A study of Daphnia magna with 48 samples.

Results

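The 50 transcripts described here had the largest excess of reads in *Daphnia magna* reared under chronic mild intermittent hypoxia (CMIH) over animals reared in normoxia, among control animals that had no acute exposure. They were chosen from the 6050 transcripts of the count table by a fixed measure of the control samples. The measure, called d, is log2((CPM in CMIH + 10)/(CPM in normoxia + 10)), where CPM is a transcript's reads per 1000000 reads of a sample and the 3 replicates of a clone and rearing condition were pooled. The added 10 CPM draws d toward 0 for scarce transcripts. Of the 6050 transcripts, 2442 had 480 reads or more over all samples, and 196 of these had a d above 0 in all 4 clones. The 50 with the largest mean d were kept after 3 transcripts (35F4.44, 11F0.55 and 3F39.53) had been set aside by rule, of which 35F4.44 alone would have qualified, as the third in rank. The levels in the controls thus chose the 50 and are a description. The same measure d was then computed in samples that the choice did not use, those taken after acute severe hypoxia (ASH).

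RNA came from whole bodies of females of 4 clones at an age of 25 days. Clones GB and HU came from permanent habitats, IL and FI from intermittent ones. Rearing was either CMIH, with regular drops to 4 mg O2/L, or normoxia at 8 mg O2/L, at the same temperature, density and food. Animals were taken either after 12 h of ASH at about 1 mg O2/L or without acute exposure (control). The study's methods describe controls frozen at once and controls kept unfed in flasks at 8 or 4 mg O2/L, and sample labels do not tell them apart. CMIH and normoxia controls thus also differed in oxygen when taken, whereas all ASH animals were at about 1 mg O2/L. The d in the controls and the d under ASH are therefore not the same contrast. Each of the 16 combinations of clone, rearing and acute treatment had 3 samples, each a pool of 2 individuals, so that 24 ASH samples and 24 control samples were at hand. A clone is a single genotype, and each habitat type is represented by only 2 of them. Rearing was applied to whole tanks, and ASH and control animals shared tanks and sequencing runs, so that p-values below measure the spread among pools and an effect of a tank cannot be told apart from an effect of CMIH. Differences between clones cannot be told apart from differences between their library preparations. Within a clone, the study's methods describe replicate libraries that each held all 4 treatments and could serve as a block, but sample labels give no membership in these libraries, so the tests below carry clone as the only block.

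*Daphnia* live in ponds in which oxygen can fall at night or under ice, and their long-known responses to low oxygen include the synthesis of hemoglobin and a slower metabolism. In arthropods such responses run in part through the hypoxia-inducible factor, a transcription factor whose alpha subunit is degraded while oxygen is plentiful. An animal that has been reared with repeated mild hypoxia may meet an acute bout in another state than an animal from normoxia, and whether rearing history leaves a mark on transcript levels under acute hypoxia is the question behind the comparison of CMIH with normoxia within the ASH samples.

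The count table names transcripts by assembly contig and predicted gene, and 0 of its 6050 identifiers matched RefSeq's gene table, for which reason the 50 carry no gene names or roles here. They are called by contig and gene number, and replicates by the numbers in their labels, in whose order single samples are listed. Total reads ranged from 18340 to 381501 in the ASH samples and from 16894 to 408355 in the control samples. In the shallowest ASH sample, FI normoxia replicate 2, a single read was worth 54.5 CPM. In whole-body RNA, fewer cells of a type and less RNA per cell cannot be told apart.

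Over the controls, the mean d of the 50 transcripts ranged from 0.55 to 1.65 with a median of 0.88. The median d was 1.29 in FI and 0.36 in IL, with 0.68 in GB and 0.89 in HU, and FI held the largest of the 4 values for 24 of the 50. The FI normoxia controls were also the shallowest of the 16 groups, with 94192 reads in all, and 15 of the 50 transcripts rested on 3 reads or fewer there, as 20 did in the HU normoxia controls. At the edge of the choice, 23F1.2 (rank 49) and 8F28.54 (rank 50) had a mean d of 0.55 and 0.55, and the first transcripts left out, 35F0.27 and 16F21.23, had 0.54 and 0.53. The transcripts with the largest mean d were 1F50.66 (1.65), 74F2.26 (1.57), 1F50.25 (1.50), 1F50.29 (1.39), 31F9.76 (1.27), 16F23.144 (1.26), 36F5.20 (1.25) and 36F7.62 (1.25).

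In each clone, 1 CMIH control sample stood above the others. In GB, the 50 transcripts together took 2.25% of the reads of CMIH replicate 10, but 0.652% and 0.685% of replicates 11 and 12, against 0.635%, 0.755% and 1.03% in the 3 normoxia controls. Without GB CMIH replicate 10, only 22 of the 50 kept a d above 0 in GB, and the rule would have chosen 19 of the 50 again. Without HU CMIH replicate 7, 28 kept a d above 0 in HU and 26 would have been chosen again. For IL CMIH replicate 12 these numbers were 31 and 29, and for FI CMIH replicate 12 they were 39 and 33. Without HU normoxia replicate 5, 46 kept a d above 0 and 33 would have been chosen again. The other 19 lists that leave out a control sample kept 37 to 48 of the 50, and 0 of the 50 transcripts were chosen in all 24 such lists. The fewest such lists were those of 23F1.2, which 8 of 24 kept, and 4F34.24, 15F13.11 and 13F15.48 had the most, with 23.

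**Figure D1:**
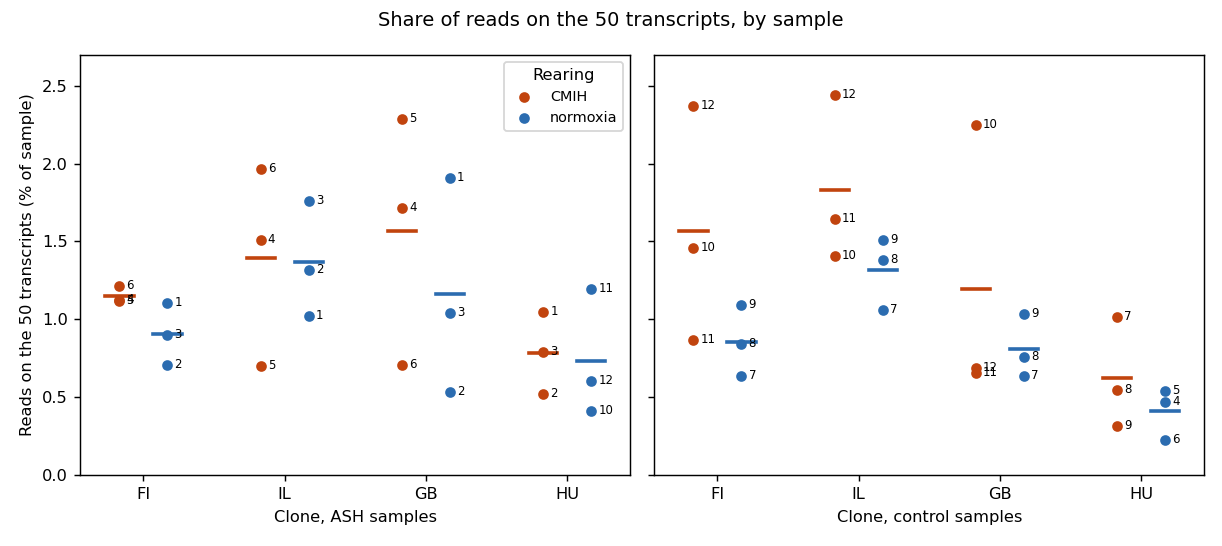
Share of each sample's reads that fell on the 50 transcripts (vertical axis, % of reads) in the ASH samples (left) and the control samples (right), by clone, with CMIH (orange) left of normoxia (blue). Points are single samples with their replicate number and bars are means of 3. In the controls, CMIH replicates 12 (FI), 12 (IL), 10 (GB) and 7 (HU) lie at 2.37%, 2.44%, 2.25% and 1.01%, above the other samples of their clone. In the ASH samples CMIH and normoxia overlap in every clone but FI, where the lowest CMIH value (1.12%) and the highest normoxia value (1.11%) nearly meet.

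In the ASH samples, 36 of the 50 transcripts had a mean d above 0, where 53.8% of the 2442 transcripts with 480 reads or more did. The median of the mean d was 0.20 (interquartile range -0.06 to 0.47), beside 0.02 (-0.15 to 0.20) over the 2442. The values spread to both sides, with 11 of the 50 above 0.5, where 7.04% of the 2442 were, and 5 below -0.5, where 6.76% were. They ran from -1.13 in 1F50.66, the first in rank in the controls, to 1.39 in 8F28.101. A d above 0 in all 4 clones was found for 4 of the 50 (15F13.11, 21F17.81, 8F28.101 and 22F19.34), where 8.56% of the 2442 had one, and a d at or below 0 in all 4 clones for 2 (11F21.3 and 73F2.98), where 8.07% did. The median moved between 0.09 without HU CMIH replicate 1 and 0.31 without HU normoxia replicate 11, and it was 0.08 without clone HU.

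**Figure D2:**
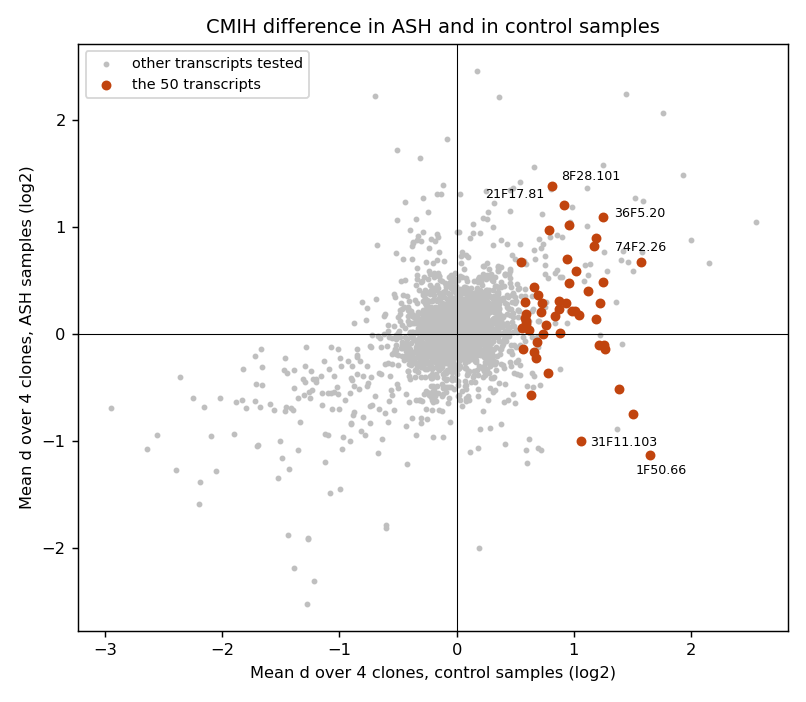
Mean d over the 4 clones in the control samples (horizontal axis, log2), which chose the 50 transcripts (orange), and in the ASH samples (vertical axis, log2), which did not; gray points are the other transcripts with 480 reads or more. The 50 lie between 0.55 and 1.65 on the horizontal axis by choice and between -1.13 and 1.39 on the vertical axis, 36 of them above 0; gray points farther right had a d at or below 0 in at least 1 clone or were set aside.

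No difference of the 50 between CMIH and normoxia passed the test across transcripts under ASH. The test was edgeR's quasi-likelihood test of rearing in the 24 ASH samples, with clone as a block, rearing averaged over habitat types, and Benjamini-Hochberg adjustment over the 6050 transcripts. At an adjusted p under 0.05 it called 0 of the 6050 transcripts, a share of 0%, and thus 0 of the 50. At an unadjusted p under 0.05 it held 335 transcripts (5.54%), among them 5 of the 50: 15F13.11, 36F5.20, 8F28.101 and 1F26.9, with log2 fold changes above 0 (205 of the 6050, 3.39%, were of that kind), and 73F2.98, with one below 0 (130, 2.15%). Among the 2442 transcripts with 480 reads or more the share was 6.06%. DESeq2's likelihood ratio test called 11 of the 6050 transcripts (0.182%), 0 of the 50, and 332 (5.49%) at an unadjusted p under 0.05, 8 of the 50. An exact permutation test within clones on log2(CPM + 10) called 0 of the 2442, with 174 (7.13%) at an unadjusted p under 0.05, 5 of the 50. Its 160000 relabellings allow a smallest p of 1.25e-05.

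**Figure D3:**
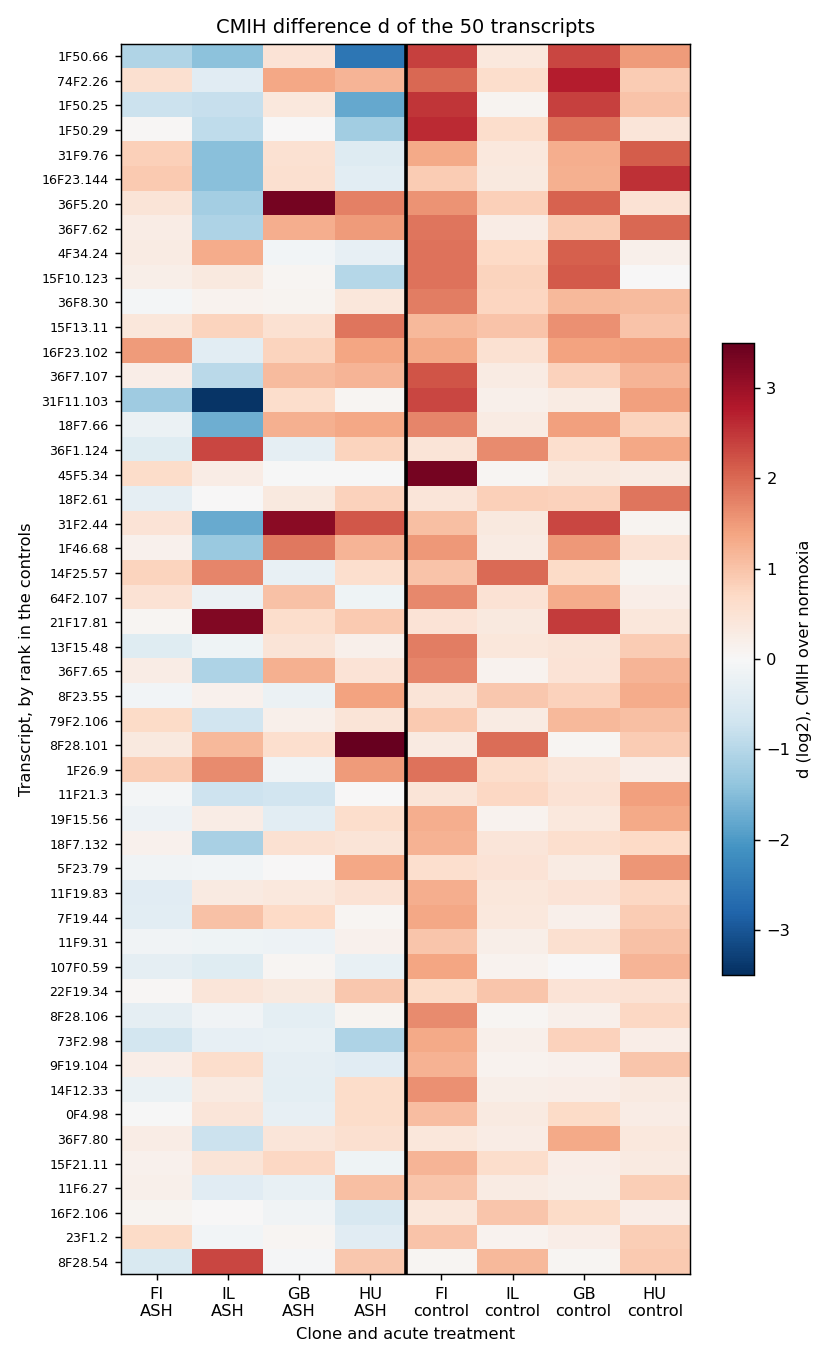
CMIH difference d (color, log2, red where CMIH was higher) of each of the 50 transcripts, by clone, in the ASH samples (left 4 columns) and the control samples (right 4 columns), from the largest mean d in the controls at the top. The right side is above 0 throughout by choice; on the left, IL holds the lowest value, -3.44 in 31F11.103, and HU the highest, 3.47 in 8F28.101.

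The values under ASH were high or low in different clones. The median d of the 50 was 0.50 in HU, 0.34 in GB, 0.11 in FI and -0.14 in IL, beside medians over the 2442 of -0.04, -0.03, 0.02 and 0.14 in the same order. In HU 34 of the 50 had a d above 0, where 45.9% of the 2442 did, in GB 33 (45.5%), in FI 29 (51.6%) and in IL 22 (63.3%). The median of the 50 stood above that of the 2442 in the permanent-habitat clones HU and GB and in FI, and below it in IL. Scaling by TMM effective library sizes moved the median of the 2442 in IL by more than 0.1, to -0.02, and the median of the 50 in IL to -0.29. For 11 transcripts d was above 0 in FI, GB and HU and below 0 in IL, where 4.34% of the 2442 had that pattern.

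Leaving out single samples moved these medians. Without IL CMIH replicate 5 the median in IL was 0.06, with 25 of the 50 above 0. Without GB CMIH replicate 5 the median in GB was -0.01, with 24 above 0, and without GB normoxia replicate 1 it was 0.81. In HU it lay between 0.22 without CMIH replicate 1 and 0.82 without normoxia replicate 11, and in FI between 0.03 without CMIH replicate 6 and 0.26 without normoxia replicate 1.

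Many of the 50 transcripts were high or low together in single samples of a group, after CMIH as after normoxia. Of the 3 IL CMIH samples, replicate 5 was the lowest for 36 of the 50, where it was the lowest for 35.6% of the 2442. In GB, CMIH replicate 6 was the lowest for 37 (35.2% of the 2442) and normoxia replicate 2 for 37 (38.8%), while CMIH replicate 5 was the highest for 28 (35.2%) and normoxia replicate 1 for 32 (31.5%). In HU, CMIH replicate 1 was the highest for 29 (36.5%) and normoxia replicate 11 for 28 (40.6%). Of the low samples, IL CMIH replicate 5 was the deepest of its group (368131 reads), GB CMIH replicate 6 the shallowest (253036) and GB normoxia replicate 2 the middle one (224932). Of the high samples, GB normoxia replicate 1 (381501) and HU CMIH replicate 1 (102322) were the deepest of their groups, GB CMIH replicate 5 (281081) the middle one and HU normoxia replicate 11 (72574) the shallowest. The part of depth and of library preparation in this was not tested.

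Deviations of log2(CPM + 10) from the mean of each clone and rearing condition were correlated between transcripts over the 24 ASH samples, as a description. The median r over the 1225 pairs of the 50 was 0.22, beside 0.01 over all pairs of the 2442, and these points share the depth of each library. For 35 of the 50, at least 1 other of the 50 had an r above 0.7, and 8F23.55 had 18 such partners, the most of any. Such partners were not counted in other sets of 50 from the 2442. A small set ran the other way: 4F34.24, 15F10.123 and 21F17.81 were high in GB CMIH replicate 6 and IL CMIH replicate 5, where most of the 50 were low, and the lowest r of any pair was -0.84.

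**Figure D4:**
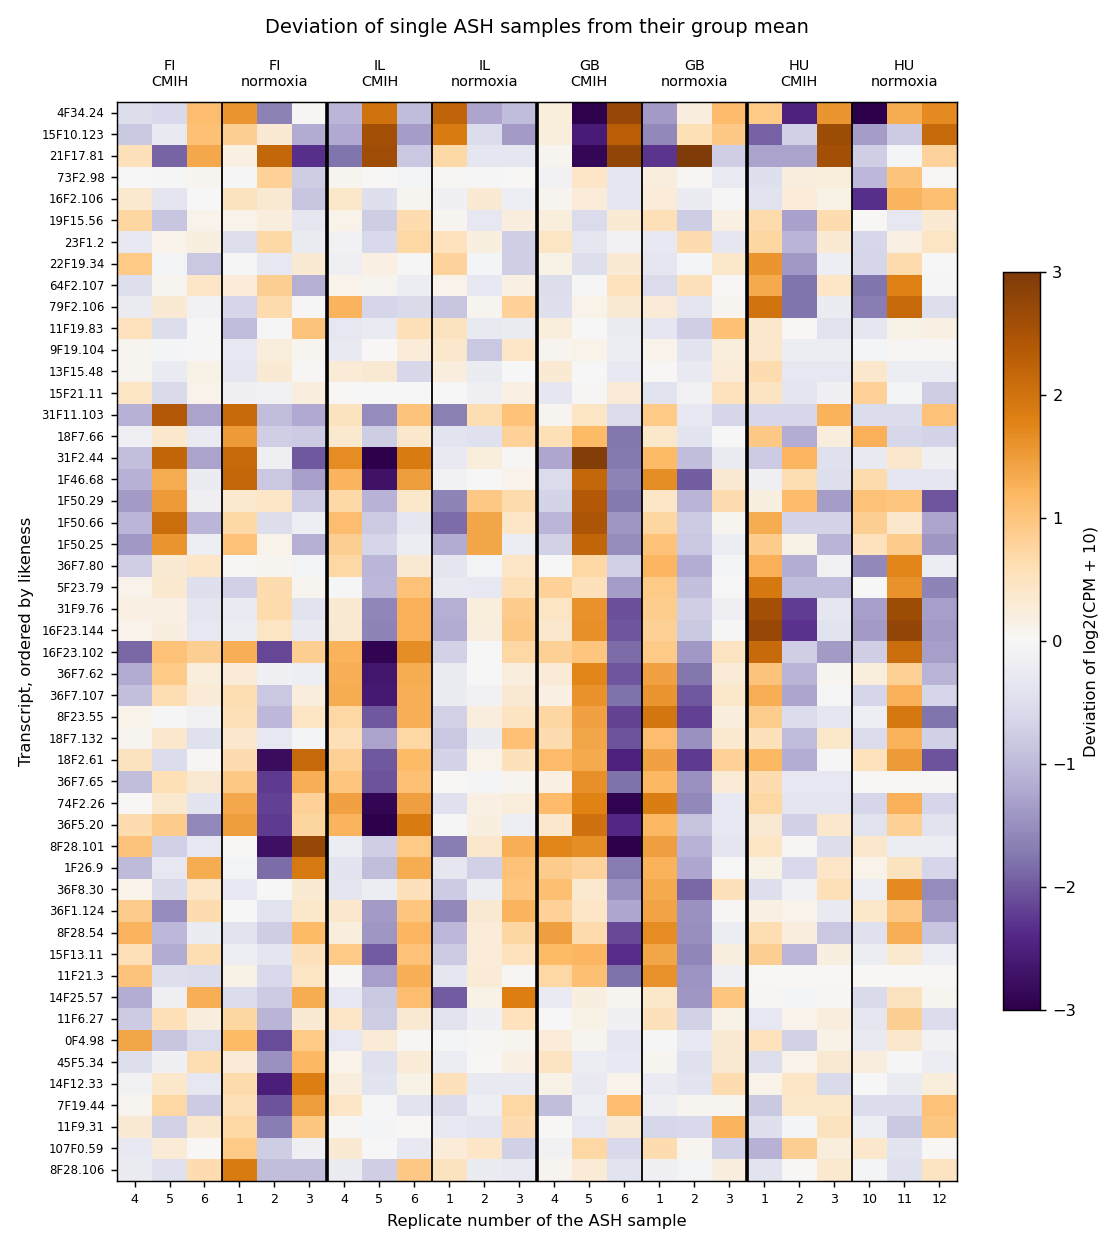
Deviation of log2(CPM + 10) from the mean of its clone and rearing condition (color, orange above and purple below) for each of the 50 transcripts (rows, ordered by likeness) in each of the 24 ASH samples (columns, CMIH left of normoxia in each clone, with replicate numbers). Most rows from 36F7.80 to 11F21.3 are low in IL CMIH replicate 5, GB CMIH replicate 6 and GB normoxia replicate 2 and high in GB normoxia replicate 1, and the top 3 rows, 4F34.24, 15F10.123 and 21F17.81, show the opposite in GB CMIH replicate 6.

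Among single transcripts, 36F5.20 had the largest log2 fold change of CMIH over normoxia under ASH. In GB, 36F5.20 had 170.3, 548 and 15.8 CPM after CMIH, against 31.5, 0 and 4.78 CPM after normoxia. In HU, 36F5.20 had 39.1, 13.4 and 40.4 CPM after CMIH, against 0, 13.8 and 0 CPM after normoxia. In both permanent-habitat clones 2 of 3 CMIH samples lay above all normoxia samples, and the lowest CMIH sample lay within the normoxia range. In FI, 36F5.20 had 155, 187 and 26.1 CPM after CMIH, against 123, 0 and 70.8 CPM after normoxia. In IL, 36F5.20 had 193, 0 and 308 CPM after CMIH, against 354, 422 and 321 CPM after normoxia. In IL every CMIH sample lay below every normoxia sample, and replicate 5 held no read at all. The d was 3.34 in GB, 1.76 in HU, 0.46 in FI and -1.20 in IL, against 2.08, 0.51, 1.58 and 0.84 in the controls of the same clones. In HU it rests on few reads, 4, 1 and 3 after CMIH against 0, 1 and 0 after normoxia. The HU controls held 1, 0 and 0 reads after CMIH against 0, 0 and 0. The GB controls held 62, 1 and 0 reads after CMIH against 4, 4 and 2. In FI and IL, only CMIH control replicate 12 lay above every normoxia control in CPM. The log2 fold change of 36F5.20 in edgeR was 1.70 ± 0.66 (SE; unadjusted p = 0.0163, adjusted p = 0.749), with adjusted p-values of 0.439 to 1 over the alternatives. It was 1.15 without GB CMIH replicate 5 and 2.41 without GB normoxia replicate 1.

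31F2.44, one of the most abundant of the 50 with 5337 reads, followed a like course. In GB, 31F2.44 had 103, 2049 and 71.1 CPM after CMIH, against 128, 22.2 and 43.0 CPM after normoxia. In HU, 31F2.44 had 29.3, 147 and 40.4 CPM after CMIH, against 4.98, 13.8 and 6.63 CPM after normoxia. In HU all CMIH samples lay above all normoxia samples, whereas in GB 1 sample, CMIH replicate 5, held most of the difference. The HU values rest on few reads, 3, 11 and 3 after CMIH against 1, 1 and 1 after normoxia. In IL, 31F2.44 had 789.7, 10.9 and 918 CPM after CMIH, against 1447, 2067 and 1802 CPM after normoxia. In FI, 31F2.44 had 186, 1677 and 143 CPM after CMIH, against 1117, 218 and 53.1 CPM after normoxia. In IL the order was turned round with no overlap, and in FI the groups overlapped, each with 1 sample far above its others. The fitted log2 fold change was 1.34 ± 0.71 (SE; unadjusted p = 0.0699, adjusted p = 0.9), and it was 0.41 without GB CMIH replicate 5 and 1.67 without GB normoxia replicate 1. In a model of clone and rearing only it was 1.09. Deviations of 31F2.44 and 1F46.68 correlated at 0.92 over the 24 ASH samples. In CPM, 1F46.68 showed the same separations, above in HU (d = 1.20) and below in IL (d = -1.31). In HU, however, 1F46.68 had only 2, 3 and 1 reads after CMIH, against 2, 0 and 0 after normoxia.

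The interaction of rearing with habitat type sets FI and IL together against GB and HU, so it does not tell IL from FI. It is the CMIH effect in the intermittent-habitat clones minus that in the permanent-habitat clones. It was -4.52 ± 1.34 (SE; unadjusted p = 0.00259, adjusted p = 0.56) for 36F5.20, -4.07 ± 1.44 (SE; unadjusted p = 0.00942, adjusted p = 0.814) for 31F2.44 and -2.42 ± 0.82 (SE; unadjusted p = 0.00717, adjusted p = 0.804) for 18F7.66 in edgeR. Leaving out single samples gave -5.20 without FI CMIH replicate 5 and -2.20 without GB CMIH replicate 5 for 31F2.44, and -5.94 without GB normoxia replicate 1 and -3.47 without GB CMIH replicate 5 for 36F5.20. At an adjusted p under 0.05, 0 of the 6050 transcripts were called (0%), with 289 (4.78%) at an unadjusted p under 0.05, and DESeq2 called 2 (0.0331%), 0 of the 50. Of the 50, 9 had an unadjusted p under 0.05 in edgeR, 8 of them with the lower CMIH effect in the intermittent-habitat clones, where 142 of the 6050 (2.35%) had that direction, and 7 had one in DESeq2, where 227 of the 6050 did (3.75%). The 8 were 36F5.20, 18F7.66, 31F2.44, 31F11.103, 13F15.48, 36F7.65, 36F7.62 and 1F46.68, and the other was 9F19.104, of a direction that 2.43% of the 6050 had. Among the 2442 the share at an unadjusted p under 0.05 was 4.46%. The intermittent-habitat clones were not alike, since d of 31F2.44 was 0.49 in FI and -1.76 in IL, and d of 18F7.66 was -0.19 and -1.71. A test of rearing by clone, added after the data had been seen, called 0 of the 6050 (0%) in edgeR. At an unadjusted p under 0.05 it held 258 (4.26%, and 4.38% of the 2442), 3 of the 50. These 3 were 36F5.20 (unadjusted p = 0.0180), 18F7.66 (0.0191) and 31F2.44 (0.0427). DESeq2 called 1 (0.0165%), 0 of the 50.

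15F13.11 had a d above 0 in all 4 clones under ASH. In HU, 15F13.11 had 1016, 268 and 646 CPM after CMIH, against 164, 248 and 166 CPM after normoxia. In FI, 15F13.11 had 1579, 459.8 and 1656 CPM after CMIH, against 563, 491 and 938 CPM after normoxia. All HU CMIH samples lay above all HU normoxia samples, and in FI CMIH replicate 5 lay below all normoxia samples. In IL, 15F13.11 had 2204, 285 and 2374 CPM after CMIH, against 429, 893 and 1069 CPM after normoxia. In GB, 15F13.11 had 2817, 2896 and 237 CPM after CMIH, against 2299, 285 and 1008 CPM after normoxia. In both of these clones the lowest CMIH sample was the one in which most of the 50 were low, replicate 5 in IL and replicate 6 in GB. The d ran from 0.39 in FI to 1.88 in HU, and the log2 fold change was 1.05 ± 0.40 (SE; unadjusted p = 0.0145, adjusted p = 0.727), with adjusted p-values of 0.369 to 1 over the alternatives.

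8F28.101 had the largest mean d of the 50 under ASH, 1.39. In HU, 8F28.101 had 166, 120.4 and 80.8 CPM after CMIH, against 4.98, 0 and 0 CPM after normoxia. In IL, 8F28.101 had 189.8, 128 and 419.9 CPM after CMIH, against 10.7, 77.3 and 153 CPM after normoxia. In HU it was nearly absent after normoxia, with a single read in 424341, and present in all CMIH samples. In FI, 8F28.101 had 434, 123 and 169.5 CPM after CMIH, against 56.8, 0 and 425 CPM after normoxia. In GB, 8F28.101 had 614, 579.9 and 7.90 CPM after CMIH, against 472, 71.1 and 124 CPM after normoxia. In IL, FI and GB the groups overlapped. The log2 fold change was 1.44 ± 0.60 (SE; unadjusted p = 0.0236, adjusted p = 0.799), and it was 1.28 without IL CMIH replicate 6 and 1.94 without GB normoxia replicate 1. The values were 0.88 without clone HU and 3.04 without clone GB.

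1F26.9, a long and rare transcript of 3822 bases and 490 reads, was also higher in HU without overlap in CPM. Its HU reads were few and overlapped, with 10, 4 and 9 after CMIH against 6, 3 and 2 after normoxia. In HU, 1F26.9 had 97.7, 53.5 and 121 CPM after CMIH, against 29.9, 41.3 and 13.3 CPM after normoxia. In IL, 1F26.9 had 101, 65.2 and 349 CPM after CMIH, against 21.4, 14.1 and 71.9 CPM after normoxia. The IL values overlapped, with 1 CMIH sample far above the others. Its log2 fold change was 1.11 ± 0.46 (SE; unadjusted p = 0.0241, adjusted p = 0.805), with d at 0.86 in FI and -0.11 in GB. 21F17.81, the shortest of the 50 at 405 bases, had a log2 fold change of 1.40 ± 0.96 (SE; unadjusted p = 0.156, adjusted p = 0.936) that rested on a few samples. In IL, 21F17.81 had 3.06, 261 and 14.9 CPM after CMIH, against 10.7, 0 and 0 CPM after normoxia. In GB, 21F17.81 had 67.4, 0 and 494 CPM after CMIH, against 0, 391 and 19.1 CPM after normoxia. In each of these 2 clones the same single CMIH sample that was low for most of the 50 held most of its reads, and the log2 fold change was 0.64 without GB CMIH replicate 6 and 2.61 without GB normoxia replicate 2.

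**Figure D5:**
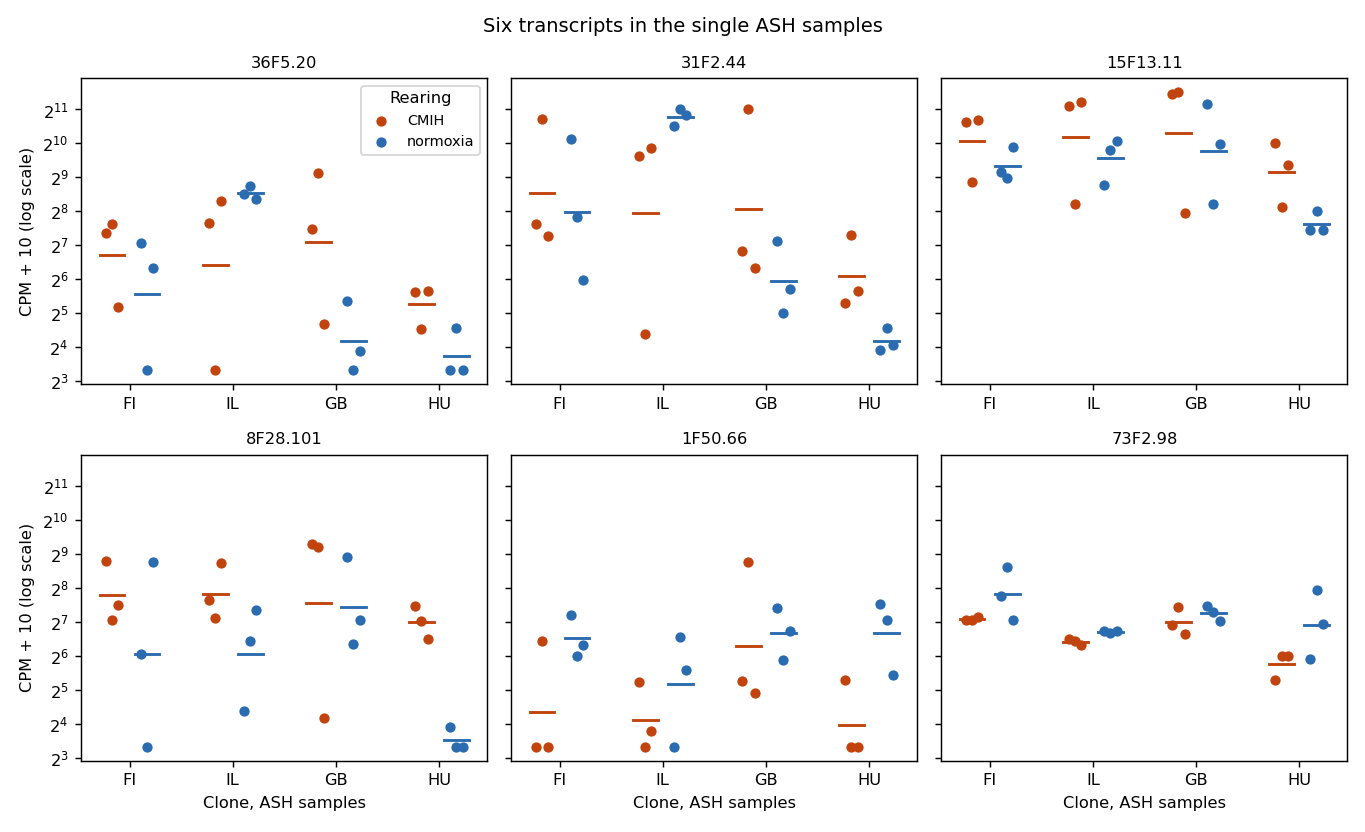
CPM + 10 (vertical axis, log scale) of 6 of the 50 transcripts in the single ASH samples, by clone, with CMIH (orange) left of normoxia (blue); points are samples and bars are means on the log scale (n = 3). 36F5.20 and 31F2.44 are lower after CMIH in IL and higher in HU on average, 15F13.11 and 8F28.101 are higher in HU without overlap, 1F50.66 is lower in HU without overlap, and 73F2.98 has the smallest spread.

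The transcripts with the lowest values under ASH included 3 of the first 4 in rank in the controls, 1F50.66, 1F50.25 and 1F50.29, which carry neighboring gene numbers on contig 1F. In HU, 1F50.66 had 29.3, 0 and 0 CPM after CMIH, against 174, 124 and 33.2 CPM after normoxia. In FI, 1F50.66 had 0, 76.6 and 0 CPM after CMIH, against 137, 54.5 and 70.8 CPM after normoxia. In HU all CMIH samples lay below all normoxia samples. In IL, 1F50.66 had 27.5, 0 and 3.72 CPM after CMIH, against 0, 84.4 and 38.3 CPM after normoxia. In GB, 1F50.66 had 28.4, 423 and 19.8 CPM after CMIH, against 159.9, 48.9 and 95.6 CPM after normoxia. In GB, CMIH replicate 5 alone exceeded every normoxia sample. The d of 1F50.66 was -1.05 in FI and -1.43 in IL, with 0.48 in GB and -2.52 in HU. In the controls, on which it was chosen, it was 2.40, 0.36, 2.33 and 1.50. The CMIH controls held 5, 7 and 106 reads in FI and 3, 8 and 73 in IL. They held 126, 1 and 10 reads in GB and 7, 1 and 0 in HU. In the CMIH controls of each clone, 1F50.66 thus had most of its reads in 1 sample. Its log2 fold change under ASH was -1.07 ± 0.63 (SE; unadjusted p = 0.104, adjusted p = 0.917), with adjusted p-values of 0.321 to 1 over the alternatives, and it was -2.02 without GB CMIH replicate 5 and -0.87 without HU normoxia replicate 10. The exact permutation test gave an unadjusted p of 0.0131 and an adjusted p of 0.498.

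Both neighbors had values of the same sign. The mean d under ASH was -0.75 for 1F50.25 and -0.52 for 1F50.29, with log2 fold changes of -0.70 ± 0.60 (SE; unadjusted p = 0.25, adjusted p = 0.967) and -0.66 ± 0.59 (SE; unadjusted p = 0.278, adjusted p = 0.967). For 1F50.25 it was -1.47 without GB CMIH replicate 5 and -0.46 without IL normoxia replicate 2, and for 1F50.29 it was -1.33 without GB CMIH replicate 5 and -0.49 without HU normoxia replicate 10. Over the 24 ASH samples the deviations of the 3 transcripts correlated at 0.83 to 0.91. Averaged over the 4 clones, 1F50.66 had 59.1 ± 71.1 CPM after CMIH and ASH, 98.0 ± 35.4 CPM after normoxia and ASH, 270.2 ± 307 CPM in CMIH controls and 63.6 ± 54.1 CPM in normoxia controls (SD over clones, n = 4). The CMIH controls held the highest of the 4 means, which the choice favored, and the CMIH samples after ASH the lowest.

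31F11.103 held the lowest d of any of the 50 in a single clone. In IL, 31F11.103 had 64.3, 8.15 and 96.6 CPM after CMIH, against 129, 661 and 896 CPM after normoxia. In FI, 31F11.103 had 31.0, 451 and 26.1 CPM after CMIH, against 1008, 109 and 88.5 CPM after normoxia. In IL the groups did not overlap, and in FI 1 CMIH sample lay among the normoxia samples. In GB, 31F11.103 had 35.5, 49.8 and 19.8 CPM after CMIH, against 34.1, 8.89 and 4.78 CPM after normoxia. In HU, 31F11.103 had 0, 0 and 26.9 CPM after CMIH, against 0, 0 and 19.9 CPM after normoxia. It was scarce in GB and HU, where these values rest on few reads. The log2 fold change was -0.78 ± 0.70 (SE; unadjusted p = 0.28, adjusted p = 0.967), and it was -1.45 without FI CMIH replicate 5 and -0.42 without GB normoxia replicate 1. In the controls of IL, 31F11.103 had 663, 32.7 and 2253 CPM after CMIH, against 1364, 1068 and 703 CPM after normoxia, with a d of 0.19 and only CMIH replicate 12 above the normoxia samples.

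73F2.98 had the smallest unadjusted p of the 50 for rearing in edgeR and in the permutation test, in the direction opposite to its choice. In DESeq2 its p was 0.0103, and 8F28.101 had a smaller one (0.00862). In HU, 73F2.98 had 29.3, 53.5 and 53.9 CPM after CMIH, against 49.8, 234 and 113 CPM after normoxia. In IL, 73F2.98 had 79.6, 76.1 and 70.6 CPM after CMIH, against 96.5, 91.4 and 95.9 CPM after normoxia. All IL CMIH samples lay below all IL normoxia samples, by a small margin. In FI, 73F2.98 had 124, 123 and 130.4 CPM after CMIH, against 208, 382 and 124 CPM after normoxia. In GB, 73F2.98 had 110.0, 164 and 90.9 CPM after CMIH, against 168, 147 and 119 CPM after normoxia. The d was below 0 in every clone, from -1.08 in HU to -0.27 in GB. The log2 fold change was -0.63 ± 0.22 (SE; unadjusted p = 0.00937, adjusted p = 0.637), with adjusted p-values of 0.331 to 1 over the alternatives, and the exact permutation test gave an unadjusted p of 0.00271 and an adjusted p of 0.331. Leaving out single samples gave -0.72 without GB CMIH replicate 5 and -0.51 without HU normoxia replicate 11.

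The most abundant of the 50 was 36F1.124, with 11175 reads over all samples. In IL, 36F1.124 had 1987, 584 and 3062 CPM after CMIH, against 64.3, 267 and 503 CPM after normoxia. In HU, 36F1.124 had 498, 482 and 364 CPM after CMIH, against 318, 468 and 86.2 CPM after normoxia. All IL CMIH samples lay above all IL normoxia samples, although replicate 5 was low here too. In FI, 36F1.124 had 1394, 247 and 1161 CPM after CMIH, against 715, 545 and 973 CPM after normoxia. In GB, 36F1.124 had 3090.4, 2377 and 739 CPM after CMIH, against 4414, 582 and 1682 CPM after normoxia. In FI and GB the ranges overlapped and d was -0.43 and -0.33. The log2 fold change was 0.85 ± 0.42 (SE; unadjusted p = 0.0565, adjusted p = 0.9). IL thus held the highest d of 36F1.124 and the lowest d of 31F11.103 and 36F5.20. 8F28.54, the last in rank, was also above in all IL samples (d = 2.33) and correlated with 36F1.124 at 0.89 over the ASH samples. 64F2.107, with 5607 reads, had a mean d of 0.29 and its highest value in GB (1.02).

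Several of the 50 lay close together on the assembly. They came from 25 of the 127 contigs with a transcript of 480 reads or more, and contig 36F held 7 of the 50, where it held 54 of the 2442 (2.21%). With gene numbers that differed by at most 1, 15 of the 50 had at least 1 neighbor among the 50, in 5 groups. Neighbors were not counted in other sets of 50 from the 2442. The largest group, on contig 36F, was 36F7.62, 36F7.65, 36F7.107, 36F7.80 and 36F8.30. Their mean d under ASH was 0.49, 0.23, 0.40, 0.12 and 0.14, and in IL -1.07, -1.07, -0.95, -0.76 and 0.12. All 5 were above 0 in GB and HU, and the 3 with the lowest IL values were the 3 with the highest GB values. Some HU values rest on very few reads. In HU, 36F7.65 had 1, 0 and 0 reads after CMIH against 0, 0 and 0 after normoxia, and 36F7.107 had 5, 0 and 1 against 0, 2 and 0. The mean d of 36F7.65 was -0.04 without GB CMIH replicate 5 and -0.11 without clone GB. The mean d of 36F7.80 and of 36F8.30 also changed sign under at least 1 alternative. Their deviations correlated at 0.37 to 0.96 with a median of 0.65.

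The closest of them were 36F7.62 and 36F7.107, at 0.96. In HU, 36F7.62 had 88.0, 13.4 and 40.4 CPM after CMIH, against 14.9, 27.6 and 0 CPM after normoxia. In IL, 36F7.62 had 266, 8.15 and 271 CPM after CMIH, against 300.1, 344 and 412 CPM after normoxia. In IL all CMIH samples lay below all normoxia samples, and in HU the CMIH values were higher on average with overlap. On contig 18F, 18F7.66 and 18F7.132 had a mean d of 0.17 and 0.00, with -1.71 and -1.13 in IL, and correlated at 0.66. On contig 16F, 16F23.144 and 16F23.102 correlated at 0.71. On contig 8F the 3 neighbors were less alike: 8F28.101 and 8F28.54 correlated at 0.82, but 8F28.106, with a mean d of -0.17, correlated with them at only -0.02 and 0.07.

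One pair on different contigs ran nearly in parallel. 16F23.144 (690 bases, 2914 reads) and 31F9.76 (681 bases, 2660 reads) correlated at 0.998 over the 24 ASH samples. In the 34 samples with 20 or more reads on both together, the ratio of their reads ranged from 0.950 to 1.38 with a median of 1.09. Whether reads of near-identical copies were split between them was not tested. In IL, 16F23.144 had 300.0, 70.6 and 579.7 CPM after CMIH, against 257, 703 and 1160.1 CPM after normoxia. In FI, 16F23.144 had 403, 434 and 299.9 CPM after CMIH, against 204, 327 and 195 CPM after normoxia. In IL the values were lower after CMIH on average with overlap, and in FI they were higher with overlap. In HU, 16F23.144 had 313, 0 and 26.9 CPM after CMIH, against 39.8, 854 and 39.8 CPM after normoxia. In GB, 16F23.144 had 444, 1064 and 75.1 CPM after CMIH, against 532, 164 and 287 CPM after normoxia. In HU each group had 1 sample far above its other 2. The mean d was -0.10 for 16F23.144 and -0.14 for 31F9.76.

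74F2.26, the second in rank in the controls, had a d above 0 in every clone but IL under ASH. In GB, 74F2.26 had 156, 253 and 0 CPM after CMIH, against 97.0, 0 and 14.3 CPM after normoxia. In HU, 74F2.26 had 39.1, 13.4 and 13.5 CPM after CMIH, against 0, 27.6 and 0 CPM after normoxia. It had no read in 1 of 3 samples of each GB group and in 2 of 3 HU normoxia samples. In IL, 74F2.26 had 189.8, 0 and 193 CPM after CMIH, against 107, 169 and 177 CPM after normoxia. The d was 0.55 in FI and -0.41 in IL, with 1.35 in GB and 1.20 in HU, with a log2 fold change of 0.91 ± 0.62 (SE; unadjusted p = 0.16, adjusted p = 0.939). It was 0.62 without GB CMIH replicate 5 and 1.78 without GB normoxia replicate 1. Over the ASH samples its deviations were most like those of 36F5.20, at 0.93.

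Complete separation of the 3 CMIH samples from the 3 normoxia samples was counted in each clone. In HU 5 of the 50 lay above in all samples (15F13.11, 31F2.44, 1F46.68, 8F28.101 and 1F26.9), where 4.18% of the 2442 did. Of these 5, 31F2.44 had 3, 11 and 3 reads in HU after CMIH against 1, 1 and 1 after normoxia. For 1F46.68 the reads were 2, 3 and 1 against 2, 0 and 0. For 1F26.9 they were 10, 4 and 9 against 6, 3 and 2. In the same clone 2 lay below (1F50.66 and 9F19.104; 3.73%). In IL 6 lay above (36F1.124, 7F19.44, 9F19.104, 0F4.98, 15F21.11 and 8F28.54; 13.7%) and 8 below (36F5.20, 36F7.62, 31F11.103, 18F7.66, 31F2.44, 1F46.68, 36F7.65 and 73F2.98; 5.24%). In FI 0 lay above (5.45%) and 1 below (13F15.48; 4.87%), and in GB 0 lay above (5.49%) and 0 below (4.01%). In at least 1 clone, 11 of the 50 lay above, where 25.5% of the 2442 did, and 11 below, where 16.1% did. No transcript of the 50 lay above in 2 clones, and 31 of the 50 were not separated in any clone. Of the 2442, 622 lay above in at least 1 clone, 393 lay below in at least 1, and 57 did both. How many of the 2442 lay above in 2 clones was not counted.

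The 23 of the 50 that the naming rule left out had mean d values between -0.37 and 0.70 under ASH, with a median of 0.19, and 18 of them were above 0. Their unadjusted p-values for rearing in edgeR ranged from 0.0590 to 0.988. The highest mean d of the 23 was that of 14F25.57 and the lowest that of 11F21.3. Over all 50, 22 had a d above 1 in at least 1 clone under ASH, where 13.3% of the 2442 had one, and 14 a d below -1, where 11.8% had one. In IL alone, 8 of the 50 had a d above 1 (6.59% of the 2442) and 11 a d below -1 (3.89%). Either was found for 30 of the 50, where 21.6% of the 2442 had one.

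The levels of the 4 combinations of rearing and acute treatment stand side by side below without a test, since the controls entered the choice. Averaged over the 4 clones, 36F5.20 had 146 ± 90.2 CPM after CMIH and ASH, 121 ± 166 CPM after normoxia and ASH, 266 ± 254 CPM in CMIH controls and 111 ± 135 CPM in normoxia controls (SD over clones, n = 4). For 15F13.11 the means were 1269.8 ± 632 CPM after CMIH and ASH, 775 ± 514 CPM after normoxia and ASH, 1188 ± 849.9 CPM in CMIH controls and 502 ± 379 CPM in normoxia controls. In both, the 2 CMIH means lay above the 2 normoxia means, and the SDs over clones were larger than the difference between the ASH means. These SDs measure how clones differed in level, not the spread of the CMIH difference within clones. 73F2.98 had 91.8 ± 39.2 CPM after CMIH and ASH, 138 ± 49.6 CPM after normoxia and ASH, 205 ± 113 CPM in CMIH controls and 116 ± 20.1 CPM in normoxia controls, with the CMIH controls highest and the CMIH samples after ASH lowest.

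Abundance and length, which the choice did not rank, stand beside those of the 2442. Their median was 1032.5 reads per transcript over all samples (range 485 to 11175), beside 1043 for the 2442, and their median length was 1311.5 bases (405 to 6797), beside 2189.5 bases.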

How the data were processed

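The authors pooled 2 individuals per sample, prepared barcoded PCR cDNA, sequenced it by Nanopore, mapped the reads with Guppy to a reference transcriptome that held 1 isoform, the longest, per gene, and kept transcripts with at least 72 reads over all samples. SAMtools is named in their processing notes. They deposited raw counts per transcript and sample, which were used here as they stand, and RPKM, which were deposited as length- and depth-scaled values and served here only to derive transcript lengths. PCR reads without molecular identifiers are not independent molecules.

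The members and lists were chosen with earlier results of these data known. Counts were fitted with edgeR 4.0.16 in R 4.3.3 (TMM, quasi-likelihood F test, Benjamini-Hochberg adjustment). Standard errors were approximated from the fold change and F. DESeq2 1.42.0, other scalings and leaving out samples or clones were alternatives. The permutation test was exact, two-sided and within clones. Steps were tested on simulated data. Named transcripts were the 8 with the largest mean d in the controls, any with an adjusted p under 0.05 (0 were), the 5 highest and 5 lowest log2 fold changes under ASH, the 5 with most reads, neighbors and ranks 49 to 52, and others named were chosen after their values were seen. Python 3.11.15, numpy 2.4.6, pandas 2.3.3 and matplotlib 3.10.9 were used.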

Additional observations from a re-analysis of the deposited data

Results flagged for a closer look

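For 3 of the 50 transcripts, all CMIH samples lay above all normoxia samples after ASH in 1 clone and below them in another, where 57 of the 2442 transcripts (2.33%) did. 31F2.44 was above in HU (d = 2.19) and below in IL (d = -1.76), a difference of 3.95 on the log2 scale, with an unadjusted p of 0.0427 and an adjusted p of 1 for rearing by clone in edgeR. 1F46.68 was above in HU (d = 1.20) and below in IL (d = -1.31), a difference of 2.52, with an unadjusted p of 0.147 and an adjusted p of 1. 9F19.104 was above in IL (d = 0.61) and below in HU (d = -0.38), a difference of 0.99, with an unadjusted p of 0.205 and an adjusted p of 1. None of the 3 differences between clones passed the test. In HU, 31F2.44 had 3, 11 and 3 reads after CMIH, against 1, 1 and 1 after normoxia. For 1F46.68 the HU reads were 2, 3 and 1 against 2, 0 and 0, so that its separation held in CPM but not in reads.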

How the results depend on the processing

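No fit called any of the 50 transcripts, and none of the 10 log2 fold changes given for the highest and lowest of the 50 changed sign under any alternative. DESeq2's likelihood ratio test called 11 of all transcripts for rearing (7 higher after CMIH), 2 for rearing by habitat and 1 for rearing by clone, edgeR without clone HU called 1 for rearing, and the other alternatives called 0 for rearing. Leaving out single samples gave 0 calls for rearing and for rearing by clone, and between 0 and 18 for rearing by habitat, with 18 only without FI CMIH replicate 5. The median of the mean d of the 50 under ASH lay between 0.08 and 0.31 over all alternatives, and 29 to 39 of the 50 were above 0. The mean d of 9 of 27 named transcripts, which lay between -0.17 and 0.23, changed sign under at least 1 alternative, among them 8F28.106 (-0.17), with 0.22 as a mean of single samples and 0.45 without FI normoxia replicate 1. The choice kept 16 of the 50 when log2(CPM + 10) of single samples was averaged in place of pooling, 27 with a minimum of 72 reads, 27 with a minimum of 1000 reads, 32 without clone IL, 21 without clone HU, and 19 to 48 without single control samples. No paired analysis was possible because the sample numbers in the labels do not repeat between the 2 rearing conditions of a clone and do not tell which samples shared a replicate library. Depth limits scarce transcripts most, since 20 of the 50 had 3 reads or fewer in the pooled HU normoxia controls and 15 in the FI normoxia controls.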
